A study of Bos taurus with 33 samples.

Results

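The nuclear genes of mitochondrial oxidative phosphorylation were followed across bovine endometrium, the inner lining of the uterus. Members were all genes in the array annotation whose symbol starts with NDUF, UQCR, SDHA, SDHB, SDHC, SDHD, COX and a digit, or ATP5, with the probe set of highest mean over all arrays standing for each gene. The rule gave 94 of 9155 named genes. These are 36 subunits of complex I, 4 of complex II, 8 of complex III, 13 of complex IV and 16 of complex V, 14 assembly factors, the complex V inhibitor ATP5IF1, and NDUFA4 and NDUFA4L2, which are named after complex I and are described apart. Roles were assigned by symbol, which counts COX7A2L among the subunits of complex IV. The rule chose genes by name, and measured levels served only to choose among the probe sets of a gene.

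Oxidative phosphorylation makes most of the ATP of a resting cell. Complex I (NADH dehydrogenase) and complex II (succinate dehydrogenase) feed electrons into the inner mitochondrial membrane, complex III (the cytochrome bc1 complex) passes them on to cytochrome c, and complex IV (cytochrome c oxidase) hands them to oxygen. Complex V (ATP synthase) uses the proton gradient that complexes I, III and IV build. Complex II is also an enzyme of the tricarboxylic acid cycle. Assembly factors insert cofactors or join subunits and are not part of the finished complexes. Around days 15 to 18 the elongating ruminant conceptus secretes interferon tau, a type I interferon that signals its presence to the endometrium, and the endometrium at that time secretes the nutrients on which the unattached conceptus depends.

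Expression was measured on Affymetrix GeneChip Bovine Genome Arrays in 33 Bavarian Simmental heifers, 1 array each, all with cycles synchronised by cloprostenol. In the biopsy experiment, 3 heifers received a lipid extrudate releasing human interferon alpha (IFNA) through the cervix into the horn on the side of the corpus luteum on day 14, 3 received the extrudate without interferon (placebo) and 3 received phosphate-buffered saline (PBS), and about 6 forceps biopsies per animal were taken after a flush on day 16. In the pregnancy experiment, heifers inseminated on day 1 and found pregnant were compared at slaughter with cyclic heifers given sperm-free supernatant, with 5 and 5 animals on day 12, 3 and 3 on day 15, and 4 and 4 on day 18. Tissue was intercaruncular endometrium of the ipsilateral horn, from its distal part on day 12, its medial part on day 15 and its caudal part on day 18. Day and part of the horn therefore cannot be told apart, and only day 12 uteri were flushed before opening. The labels count each array as a biological replicate.

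The deposited values are log2 expression levels. Their distributions matched within 4 sets of arrays (the biopsies and each slaughter day) and differed between sets, so contrasts within a set used the values as deposited and contrasts between days used values centred on each array's median. RNA signal differed between the experiments: the 3′ probe set of GAPDH lay 2.38 to 2.67 log2 above its 5′ probe set in the means of the biopsy groups and -0.11 to 0.46 above it in those of the slaughter groups. For actin the same difference ran the other way, from 0.53 to 1.54 in biopsy arrays and from 1.94 to 2.67 in slaughter arrays. On day 18 the GAPDH difference was -0.01 in pregnant and -0.02 in cyclic animals. Endometrial markers were present: the probe sets of EPCAM and KRT18 (epithelium) lay at the 89.8th percentile of their arrays or above in every group, as did VIM, DCN and COL3A1 (stroma), whereas the KRT8 probe set lay between the 21.2nd and 28.4th percentile. The interferon-induced gene ISG15 marked the treatments, with log2 differences of 4.91 for IFNA against placebo, 5.24 for pregnant against cyclic on day 15 and 4.90 on day 18. Pregnant animal 2 of day 18 had the highest mean over the members of the 24 slaughter arrays. Some results are given without it as well, and those not marked so include it.

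The first question the design poses is whether the endometrium of pregnant animals differs from that of cyclic animals of the same day. On day 18, 45 of the 94 genes were higher in pregnant animals and 1 was lower at a limma adjusted p below 0.05, where 8.84% of all 24016 probe sets were higher and 10.2% lower. Their median log2 difference was 0.21, against -0.03 over all probe sets. The median member lay at the 92.1st to 93.8th percentile of its arrays in the group means. Most probe sets are dimmer, so the shares over all probe sets are not a background of like brightness. On day 15, 8 genes were higher and none lower (29 at unadjusted p below 0.05), where 2.75% of all probe sets were higher and 2.32% lower, and the median difference was 0.12 against -0.01. On day 12 none passed in either direction (7 at unadjusted p below 0.05), where 0% of probe sets were higher and 0.00416% lower, and the median was -0.04 against 0.01. The percentages here and below are for adjusted p. Shares of all probe sets at unadjusted p below 0.05 are not given, so counts of members at that cut-off have no background beside them. In bulk tissue, fewer cells of a type and less RNA per cell cannot be told apart, and this holds for every difference below.

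All 8 genes that were higher on day 15 were also among the 45 of day 18. Over the 94 genes the differences of day 15 and day 18, which come from separate animals, correlated with Pearson's r of 0.85 and Spearman's rho of 0.85, and 81 had the same sign. These are descriptions over genes, which share arrays and are not independent, and the same values over all probe sets are not given. With the differences of day 12 the day 18 differences correlated at r = 0.02. On day 18, 32 genes had all 4 pregnant arrays above all 4 cyclic arrays and 4 had them all below, and over all probe sets 9.24% and 11.8% did so. On day 15, 41 genes had the 3 pregnant arrays above the 3 cyclic ones and 1 had them below, against 9.91% and 12.7% of all probe sets.

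**Figure D1:**
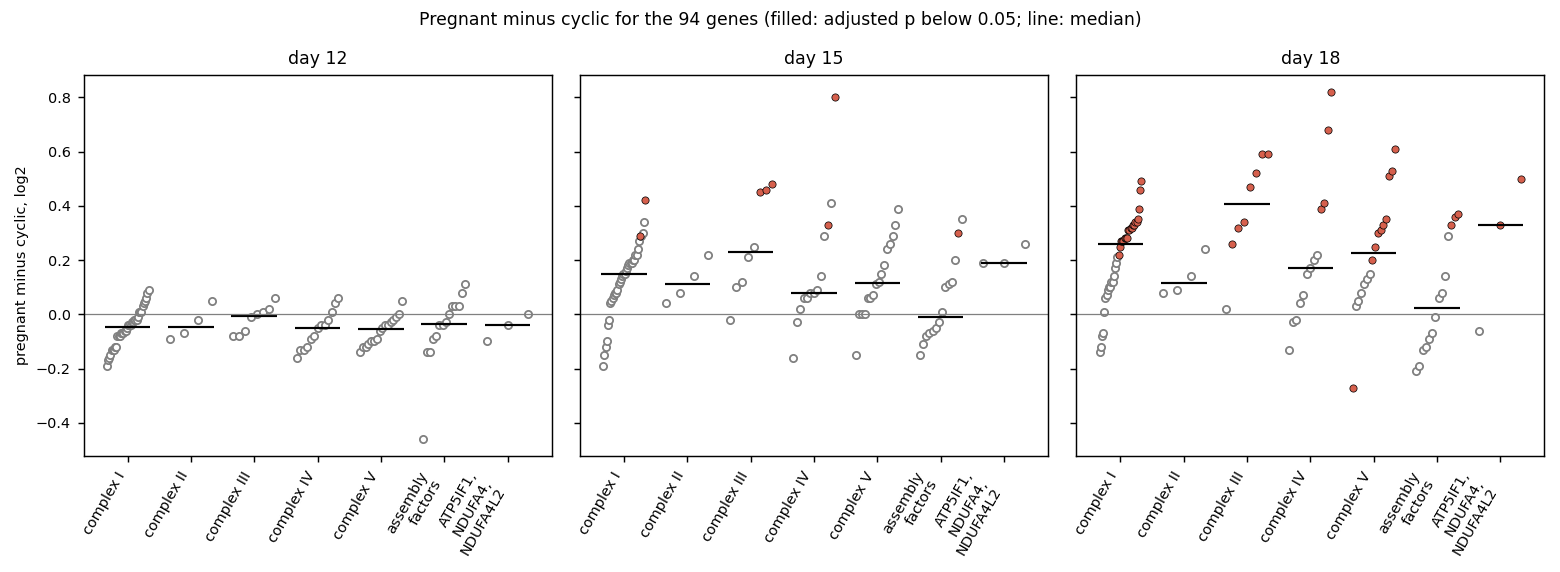
Difference between pregnant and cyclic animals (log2, vertical axis) for each of the 94 genes on days 12, 15 and 18, grouped by complex, with filled points past the limma threshold and lines at group medians. On day 18 the median lies at 0.41 for complex III, 0.26 for complex I and 0.02 for the assembly factors.

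Both counts have limits. Without pregnant animal 2, whose mean over the 94 genes lay 3.20 log2 above the array median against 2.90 to 3.00 in the other pregnant animals of day 18, 27 genes were higher and 2 lower on day 18, and the median difference was 0.13; 28 of the 46 first called stayed past the threshold. With the spread estimated from the compared groups alone, 21 were higher on day 18 and 4 on day 15, and leaving out 1 animal at a time gave 2 to 5 on day 15. The day 15 count was 13 with array weights and 15 without low probe sets. Shares of all probe sets under these settings are not given, so the counts do not show whether the members alone moved.

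Complex I takes electrons from NADH. On day 18, 20 of its 36 subunits were higher in pregnant animals and none lower, with a median difference of 0.26; without pregnant animal 2 the counts were 9 higher and 1 lower. The largest difference was that of NDUFS4, an accessory subunit needed for a stable NADH-oxidising module. Its cyclic arrays of day 18 read 10.79, 10.50, 10.55 and 10.49, and its pregnant arrays read 10.94, 11.30, 11.00 and 11.05. Each pregnant animal lay above each cyclic animal, and the log2 difference was 0.49 ± 0.0762 (SE, n = 4 and 4, adjusted p = 9.32e-05). The day 15 arrays showed the same order, at 10.21, 10.11 and 10.23 in cyclic and 10.52, 10.65 and 10.64 in pregnant animals, a difference of 0.42 ± 0.0880 (adjusted p = 0.00617).

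Among other complex I genes, NDUFV1, the subunit that binds NADH, was higher by 0.46 ± 0.103 on day 18 (adjusted p = 0.00306), with pregnant arrays from 9.56 to 10.10 and cyclic arrays from 9.07 to 9.50. NDUFA6, an accessory subunit, was higher on both days, by 0.29 on day 15 and 0.33 on day 18 (adjusted p = 0.0385 and 0.00178). The 2 day 15 calls of this complex were NDUFS4 and NDUFA6. Differences among the 36 subunits ran from -0.14 to 0.49 on day 18 and from -0.19 to 0.42 on day 15, and 32 and 30 of them were positive.

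Complex II had no subunit past the threshold on either day. SDHA, which carries the flavin and oxidises succinate, differed by 0.24 on day 18 (adjusted p = 0.054) and by 0.22 on day 15 (adjusted p = 0.238). SDHB, the iron-sulphur subunit, differed by 0.08 on day 18. The membrane anchors SDHC and SDHD differed by 0.14 and 0.09 (adjusted p = 0.268 and 0.483). On day 15 SDHB, SDHC and SDHD differed by 0.08, 0.14 and 0.04, none past the threshold. All 4 subunits were positive on day 18, with a median difference of 0.11 and a median SE of 0.0784.

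Complex III had the largest share of members past the threshold. On day 18, 7 of its 8 subunits were higher in pregnant animals, with a median difference of 0.41, and the remaining one, the hinge protein UQCRH, differed by 0.02. UQCRFS1, the Rieske iron-sulphur protein, read 10.80, 10.54, 10.47 and 10.51 in cyclic and 11.03, 11.48, 11.09 and 11.08 in pregnant animals of day 18. Pregnant animal 2 was the highest and the groups did not overlap, with a difference of 0.59 ± 0.0988 (adjusted p = 0.000202). On day 15 the values were 10.36, 10.13 and 10.29 against 10.78, 10.67 and 10.76, a difference of 0.48 ± 0.114 (adjusted p = 0.0160).

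The core protein UQCRC1 was higher by 0.59 on day 18 and 0.46 on day 15, and the small subunit UQCR11 by 0.52 and 0.45. These are adjusted p-values of 0.000251 and 0.0212 for UQCRC1, and of 0.00157 and 0.0379 for UQCR11. The other complex III subunits past the threshold on day 18 were UQCRB (0.47), UQCRC2 (0.34), UQCRQ (0.32) and UQCR10 (0.26). Without pregnant animal 2, 4 of the 8 were past it and the median was 0.34. CYC1, the cytochrome c1 subunit, lies outside the name rule and was higher by 0.38 ± 0.104 on day 18 (adjusted p = 0.0130), but without pregnant animal 2 its difference of 0.28 did not pass.

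In complex IV, 4 of 13 subunits were higher on day 18, namely COX7A1, COX5A, COX7A2 and COX6A1, and the same 4 remained without pregnant animal 2. COX7A1 showed the largest difference of all members on both days. This gene encodes the form of subunit VIIa typical of heart and skeletal muscle. Its cyclic arrays of day 18 read 8.85, 9.07, 9.01 and 9.04 and its pregnant arrays 9.68, 9.71, 10.00 and 9.85. The lowest pregnant animal lay above the highest cyclic one, and the difference was 0.82 ± 0.0936, or 1.76-fold (adjusted p = 1.64e-06). On day 15 cyclic animals read 8.24, 8.41 and 8.19 and pregnant animals 9.38, 8.91 and 8.94, a difference of 0.80 ± 0.108 (adjusted p = 5.03e-05). On day 12 the groups overlapped, from 8.52 to 8.70 in cyclic and from 8.54 to 8.78 in pregnant animals, with a difference of 0.06 ± 0.0837.

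COX5A, which sits on the matrix side of complex IV, read 10.75, 10.40, 10.31 and 10.42 in cyclic and 10.88, 11.59, 11.00 and 11.14 in pregnant animals of day 18. Pregnant animal 2 was again the highest, and the difference was 0.68 ± 0.115 (adjusted p = 0.000221); leaving out 1 animal at a time moved it between 0.54 and 0.78. COX6A1 was higher by 0.39 on day 18 and 0.33 on day 15 (adjusted p = 0.00153 and 0.0410).

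Several complex IV subunits have tissue forms. COX7A2, the widely expressed partner of COX7A1, was higher by 0.41 on day 18 (adjusted p = 0.00560) and differed by 0.29 on day 15 (adjusted p = 0.171). COX6A2, the muscle form of subunit VIa, differed by 0.04 on day 18, beside the 0.39 of the widely expressed COX6A1. COX8A and its muscle form COX8B differed by 0.15 and -0.03 on day 18, COX4I1 by 0.07, and COX6B2, the testis form of subunit VIb, by -0.13. None of COX6A2, COX8A, COX8B, COX4I1 and COX6B2 passed the threshold on day 15 or 18; on day 15 they differed by 0.09, 0.08, 0.02, 0.08 and -0.03. The differences between partners were not themselves tested. COX6A2 and COX6B2 were dim, at mean percentiles of 27 and 27.4 over all arrays, which limits what their differences can show. COX4I2 and COX6B1 were not among the named genes measured.

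**Figure D2:**
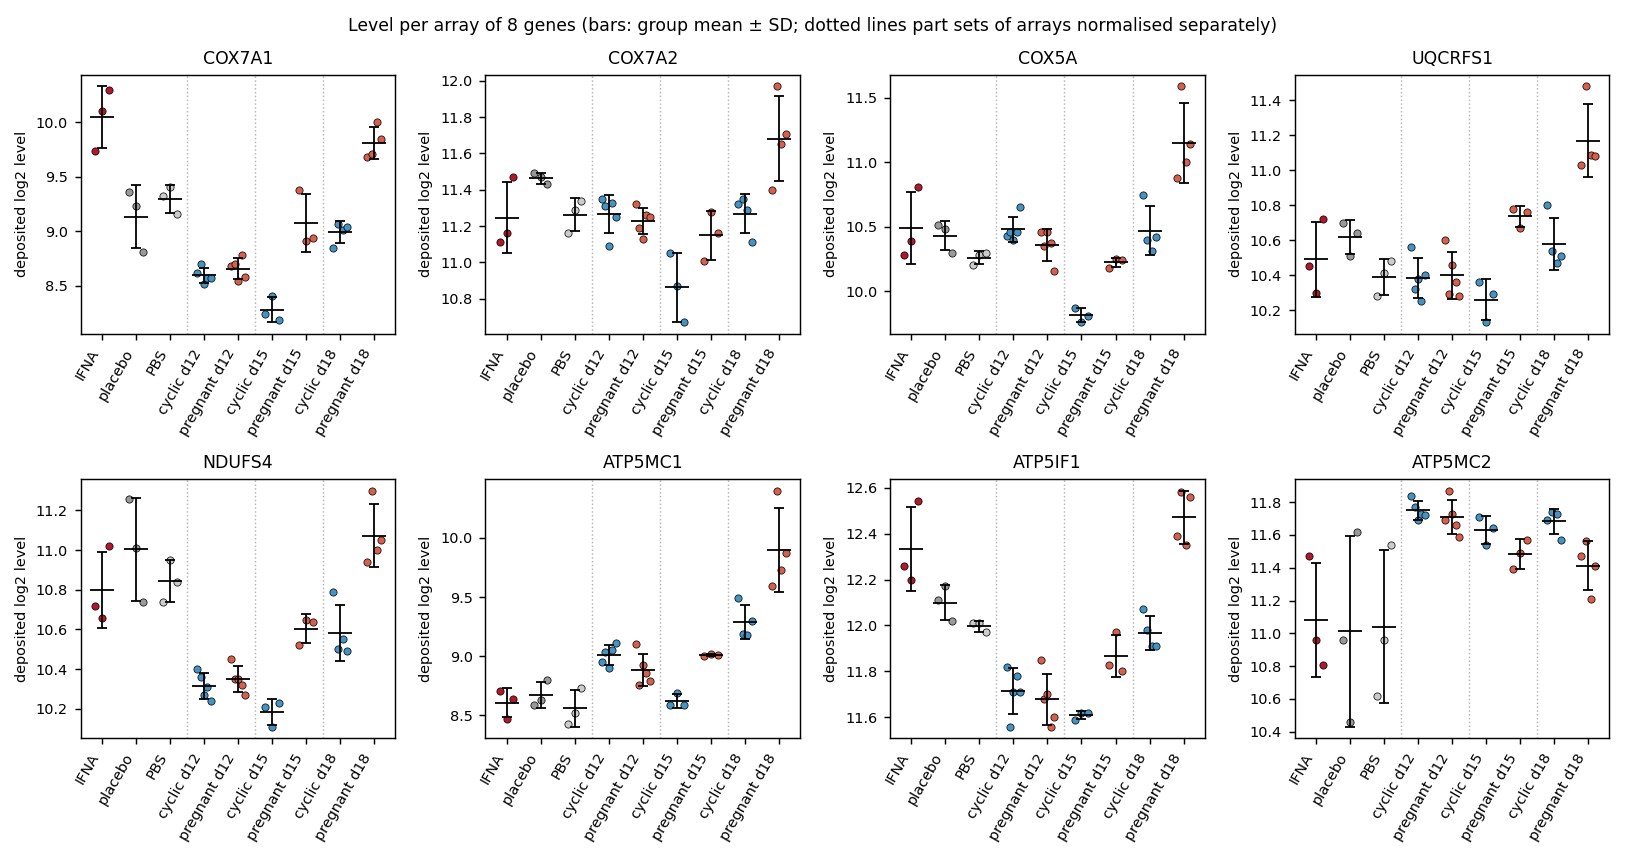
Deposited log2 level in each array (points) with group mean and SD (bars) for 8 genes in the 9 groups; levels may be compared within a set of arrays, between dotted lines. COX7A1 is separated between pregnant and cyclic animals on days 15 and 18, and ATP5MC2 is lower in pregnant animals on day 18.

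In complex V, 9 of 16 subunits were higher on day 18 and 1 was lower, and without pregnant animal 2 these counts were 6 and 1; on day 15 none passed (5 at unadjusted p below 0.05). The genes ATP5MC1, ATP5MC2 and ATP5MC3 encode the same mature subunit c of the membrane ring behind different import signals. ATP5MC1 read 9.49, 9.19, 9.18 and 9.30 in cyclic and 9.59, 10.40, 9.73 and 9.87 in pregnant animals, a difference of 0.61 ± 0.119 (adjusted p = 0.000946). ATP5MC3 was higher by 0.53 ± 0.0899 (adjusted p = 0.000222). ATP5MC2 was lower: its cyclic arrays read 11.69, 11.74, 11.73 and 11.57 and its pregnant arrays 11.47, 11.56, 11.21 and 11.41, so the pregnant animals all lay below the cyclic ones. The log2 difference was -0.27 ± 0.0738 (adjusted p = 0.0128), and it missed the threshold without pregnant animal 3 and with the spread of the compared groups alone. Subunit c genes thus differed in direction within the same animals.

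ATP5F1C, the central shaft of the catalytic head, was higher by 0.51 ± 0.102 on day 18 (adjusted p = 0.00107). ATP5IF1, which binds ATP synthase and blocks its reverse, ATP-splitting reaction, read 12.07, 11.98, 11.91 and 11.91 in cyclic and 12.39, 12.58, 12.35 and 12.56 in pregnant animals. Its groups were well separated and its SE was among the smallest of the leading genes, with a difference of 0.50 ± 0.0727 (adjusted p = 3.86e-05). On day 15 ATP5IF1 differed by 0.26 (adjusted p = 0.0817). NDUFA4, now counted as a subunit of complex IV, was higher by 0.33 on day 18 (adjusted p = 0.0173), whereas its hypoxia-inducible relative NDUFA4L2 differed by -0.06. On day 15 both differed by 0.19, which did not pass. The NDUFA4L2 probe set was dim, at a mean percentile of 34.3 over all arrays.

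Of the 14 assembly factors, 3 were higher on day 18, and the median difference was 0.02. SDHAF2, which attaches the flavin to SDHA, read 9.59, 9.43, 9.50 and 9.48 in cyclic and 9.72, 9.99, 9.77 and 9.96 in pregnant animals, a difference of 0.36 ± 0.0666 (adjusted p = 0.000545). It was also the only assembly factor past the threshold on day 15, at 0.30 (adjusted p = 0.0242). COX10 takes part in making the haem of complex IV, and NDUFAF5 modifies a complex I subunit. They were higher by 0.37 and 0.33 on day 18 (adjusted p = 0.00159 and 0.0114). The other 11 differed by -0.21 to 0.29.

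Calls of day 18 that held under every alternative tried numbered 20 of 46. They were NDUFS4, NDUFA6, NDUFB8, NDUFB9 and NDUFV1 of complex I, UQCRFS1, UQCRC1, UQCRB and UQCR11 of complex III, COX7A1, COX7A2, COX5A and COX6A1 of complex IV, ATP5MC1, ATP5MC3 and ATP5F1C of complex V, ATP5IF1, and the assembly factors SDHAF2, COX10 and NDUFAF5. On day 15 only COX7A1 held under all 13 alternatives; UQCR11 missed the threshold in 8 of them, COX6A1 in 9, NDUFA6 in 8 and SDHAF2 in 6.

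Whether the pregnancy difference itself changed between days was tested as an interaction. From day 12 to day 15 it grew for 1 of the 94 genes, COX7A1, by 0.74 ± 0.137 (adjusted p = 0.00336), where 1.37% of all probe sets passed with a larger and 0.62% with a smaller later difference; 31 genes were below 0.05 unadjusted. COX7A1 passed under all 23 alternatives. The count was 3 with median-centred arrays, 4 with array weights, 6 without low probe sets and 9 with the compared groups alone. COX5A had the next largest change, 0.53 ± 0.168 (adjusted p = 0.112). From day 15 to day 18 no gene passed (2 at unadjusted p below 0.05), where 0.167% and 0.0416% of probe sets passed with a larger and a smaller later difference. The largest changes there were 0.29 for both NDUFA2 and COX20 (adjusted p = 0.775 and 0.792), and that of COX7A1 was 0.02 ± 0.143. On day 12 itself the largest differences were those of SDHAF4, a complex II assembly factor, at -0.46 ± 0.113 (adjusted p = 0.378), and NDUFA11 at -0.19 ± 0.0899 (adjusted p = 0.749). SDHAF4 ran from 7.70 to 8.14 in pregnant and from 8.09 to 8.51 in cyclic animals, so the groups overlapped by little. Complex II subunits differed on day 12 by -0.02 for SDHA, -0.07 for SDHB, 0.05 for SDHC and -0.09 for SDHD, and ATP5IF1 by -0.04. The tissue forms COX4I1, COX6A1, COX6A2, COX6B2, COX7A2, COX8A and COX8B differed there by -0.05, -0.08, -0.09, -0.13, -0.04, -0.16 and 0.04, and NDUFA4 and NDUFA4L2 by 0.00 and -0.10.

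**Figure D3:**
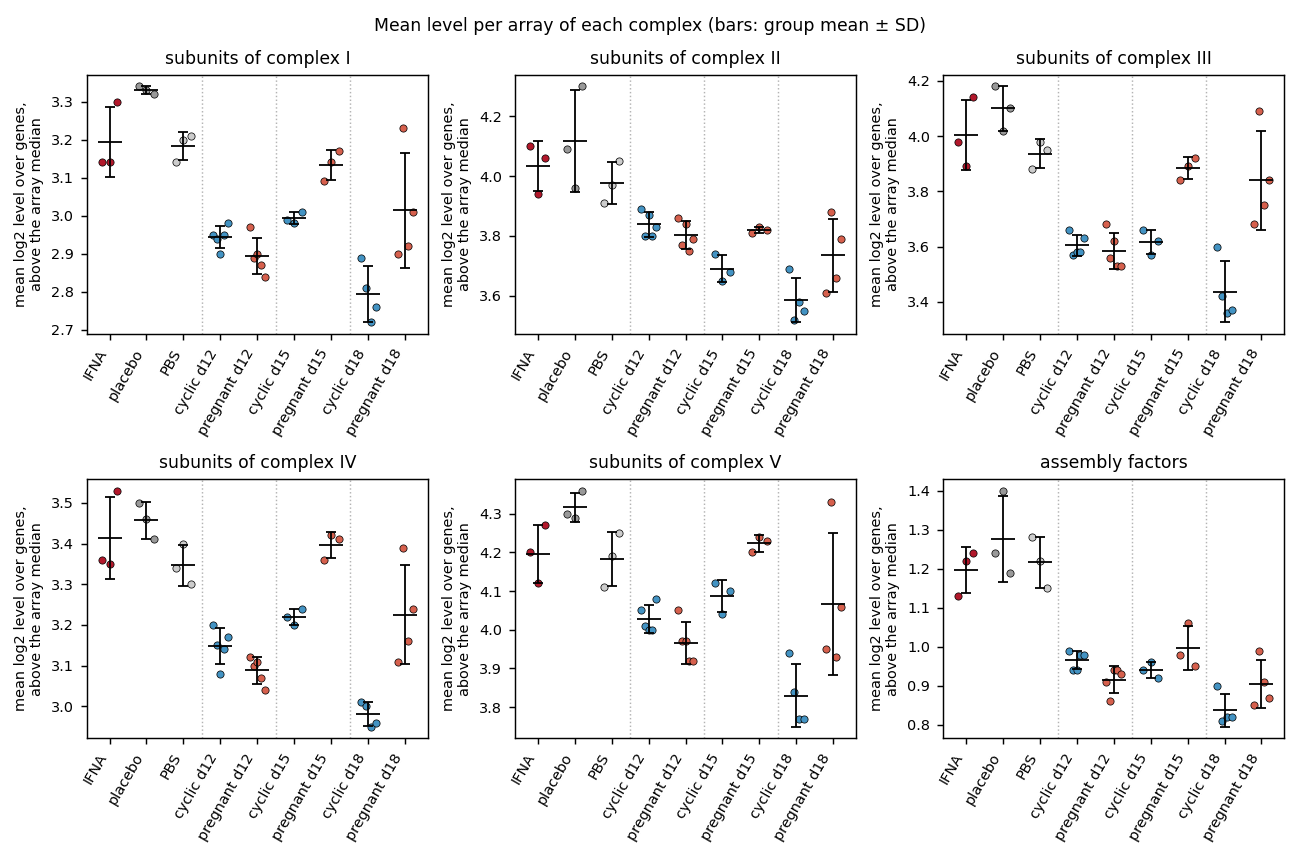
Mean log2 level above the array median over the subunits of each complex, or over the assembly factors, in each array (points), with group mean and SD (bars) for the 9 groups. Pregnant animals of day 15 lie above cyclic ones in complexes I to V, and pregnant animal 2 is the highest pregnant array of day 18 in every panel.

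The members of a complex moved together to different degrees across animals. Within the 6 slaughter groups, the median correlation between pairs of genes was 0.65 for complex V, 0.54 for complex I, 0.52 for complex III and 0.23 for complex IV (24 arrays, deviations from group means, no test). For all 94 genes it was 0.40. Pairs share the depth of signal and quality of each array, and pregnant animal 2 of day 18 contributes to each value.

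The second question is whether interferon alpha placed in the uterus moves the same genes. Against placebo, none of the 94 passed in either direction (8 at unadjusted p below 0.05), where 0.837% of all probe sets were higher and 0.0291% lower. The median difference was -0.08, against -0.02 over all probe sets, and 73 of the genes were negative. Against PBS none passed either (2 at unadjusted p below 0.05), where 0.712% were higher and 0.15% lower, and the median was 0.01. Placebo against PBS also gave none (1 at unadjusted p below 0.05), where 0% of probe sets passed in each direction, but 83 of the 94 genes were higher with placebo, at a median of 0.10 against 0.00 over all probe sets. The first and last of these comparisons share the placebo arrays.

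The 3 placebo animals read 3.30, 3.30 and 3.28 log2 above the array median in the mean of the 94 genes. The PBS animals read 3.15, 3.19 and 3.18, and the IFNA animals 3.15, 3.14 and 3.28. Placebo animals thus lay at or above the other biopsies, and IFNA animal 3 reached them. The largest differences of placebo against PBS were 0.39 for SDHAF4 and 0.34 for ATP5MJ, a small subunit of ATP synthase (adjusted p = 0.999 each).

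COX7A1 had the largest difference in both IFNA comparisons. It read 9.74, 10.10 and 10.30 with IFNA, 9.36, 9.23 and 8.81 with placebo and 9.32, 9.41 and 9.16 with PBS. Each IFNA animal lay above all 6 control animals. The log2 difference was 0.91 ± 0.182 against placebo (adjusted p = 0.0714) and 0.75 ± 0.182 against PBS (adjusted p = 0.148), which did not pass. Over 14 alternatives the adjusted p against placebo ran from 0.00856 to 0.279, and it passed in 3 of them: with array weights, with the GAPDH difference as covariate, and without IFNA animal 1. Against PBS it ran from 0.0234 to 0.453 and passed in 2, with array weights and with the GAPDH covariate. COX7A2, its partner, differed by -0.22 against placebo and -0.02 against PBS.

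Against placebo, 20 of the members had a positive difference, COX7A1 among them. ATP5IF1 read 12.26, 12.20 and 12.54 with IFNA, 12.11, 12.17 and 12.02 with placebo and 12.01, 12.01 and 11.97 with PBS. Each IFNA animal lay above the 6 control animals, and the differences were 0.23 ± 0.110 against placebo (adjusted p = 0.621) and 0.34 ± 0.110 against PBS (adjusted p = 0.317). NDUFB6, in the membrane arm of complex I, read 8.94, 8.75 and 9.19 with IFNA, 9.61, 9.61 and 9.27 with placebo and 9.25, 9.28 and 9.28 with PBS. Its difference against placebo was -0.54 ± 0.139 (adjusted p = 0.203). NDUFS7, an iron-sulphur subunit of complex I, differed by -0.41 ± 0.181 against PBS (adjusted p = 0.542). Against placebo COX6A1 differed by -0.04, COX6A2 by -0.13, COX4I1 by -0.08, COX6B2 by -0.12, COX8A by -0.02, COX8B by -0.06, NDUFA4 by 0.02 and NDUFA4L2 by -0.15. SDHA, SDHB, SDHC and SDHD differed by -0.06, 0.04, -0.07 and -0.13, and none of these passed. Some members varied widely between biopsies of 1 group, such as ATP5MC2 at 10.96, 10.46 and 11.62 with placebo; the GAPDH difference also varied there, from 1.03 to 3.87, and its part in this was not tested.

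The IFNA difference over placebo was then set against the pregnancy difference of each day, on all 33 arrays. Against day 18, 7 members had a smaller IFNA difference and none a larger one, where 0.72% and 0.371% of all probe sets did. They were UQCRFS1 (-0.72 ± 0.155, adjusted p = 0.0166), ATP5MC3 (-0.69 ± 0.136, adjusted p = 0.00984), NDUFS4 (-0.69 ± 0.145, adjusted p = 0.0136), NDUFB6 (-0.66), COX7A2 (-0.63), NDUFB5 (-0.62) and UQCRB (-0.58). UQCRFS1 differed by -0.13 with IFNA and by 0.59 with pregnancy, and ATP5MC3 by -0.15 and 0.53. For NDUFB6 the larger part lay in the biopsies, at -0.54 with IFNA and 0.12 with pregnancy. COX7A1 had values of 0.91 and 0.82, and the difference between them was 0.10 ± 0.179 (adjusted p = 0.885).

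The median over the 94 genes was -0.28, against 0.01 over all probe sets. None of the 7 calls stood when the spread came from the compared groups alone. The number of members past the threshold was higher with quantile normalisation (11), median-centred arrays (12) and array weights (23). It was lower when IFNA animal 2 (1), placebo animal 1 (2), or cyclic or pregnant animal 2 of day 18 (4 each) was left out. It was higher when IFNA animal 3 (15), placebo animal 2 (12), cyclic animal 1 (12) or pregnant animal 1 (14) was. Shares of all probe sets under these settings are not given. Against day 15 no member passed (25 at unadjusted p below 0.05), where 0.187% of probe sets had a larger and 0.183% a smaller IFNA difference; 1 passed with median-centred arrays, 7 with array weights, and 2 when IFNA animal 3 or placebo animal 3 was left out. The largest there were NDUFS7 at -0.63 (adjusted p = 0.174) and NDUFS4 at -0.62 (adjusted p = 0.0758). Biopsies and slaughter samples differ in day, sampling and RNA signal, which cannot be told apart from the treatment in this contrast.

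**Figure D4:**
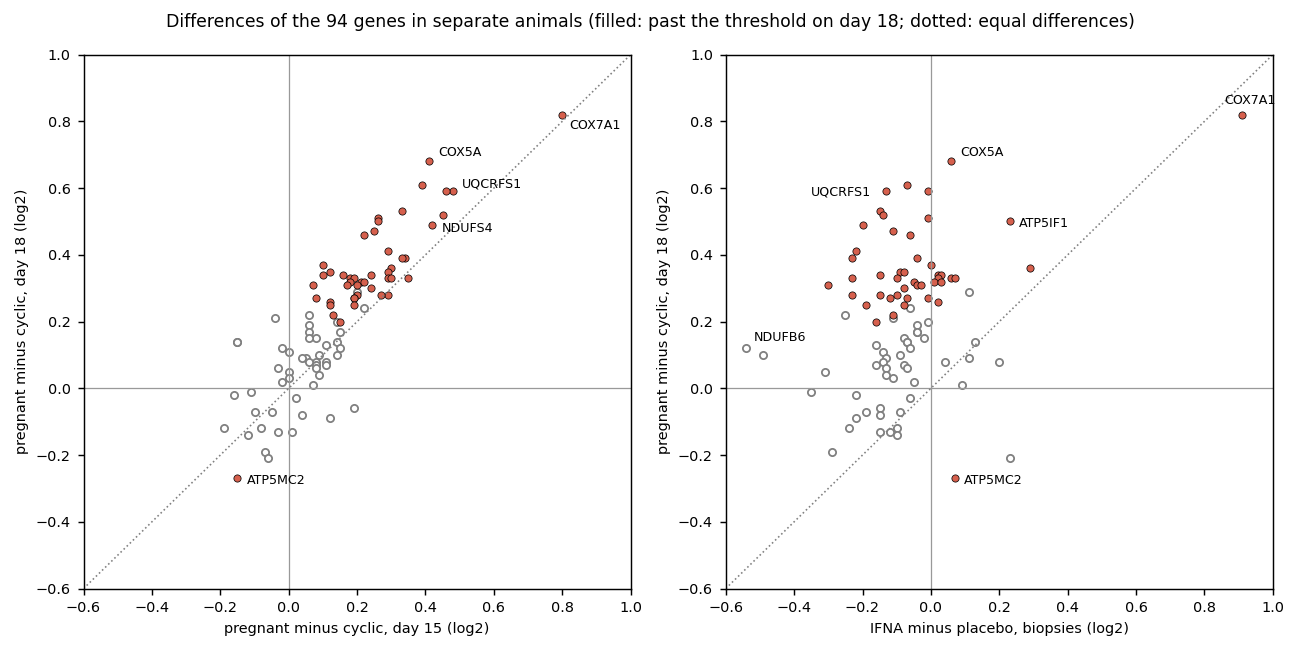
Log2 difference of pregnant against cyclic animals on day 18 (vertical axis) for the 94 genes, against that of day 15 (left) and against IFNA minus placebo in biopsies (right), with filled points past the threshold on day 18. The left panel follows the diagonal with r = 0.85, and in the right panel COX7A1, at 0.91 and 0.82, lies apart from the other genes.

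Comparisons between days cross sets of arrays that were normalised separately, so each is given on median-centred arrays and after quantile normalisation of the 24 slaughter arrays together. In cyclic animals, 30 members were higher and 18 lower on day 15 than on day 12, where 39.4% and 19.1% of all probe sets were; after quantile normalisation 18 were higher and 19 lower, where 26.8% and 23.9% were. In pregnant animals the day 15 counts were 48 higher and 6 lower, where 39% and 21.3% of probe sets were, and 39 and 10 after quantile normalisation, where 26.9% and 26.6% were. The median difference of the members in pregnant animals was 0.24 against 0.11 over all probe sets, and 0.15 against -0.01 after quantile normalisation.

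From day 15 to day 18, 7 members were higher and 49 lower in cyclic animals, where 16.7% and 32.8% of probe sets were, but 13 and 19 after quantile normalisation, where 20.5% and 19.4% were. In pregnant animals 12 were higher and 41 lower, where 18.5% and 33.7% were, but 20 and 17 after quantile normalisation, where 22.4% and 21.4% were. The fall of most members from day 15 to day 18 therefore depends on the scaling. The median difference went from -0.21 to -0.03 in cyclic and from -0.16 to 0.03 in pregnant animals.

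**Figure D5:**
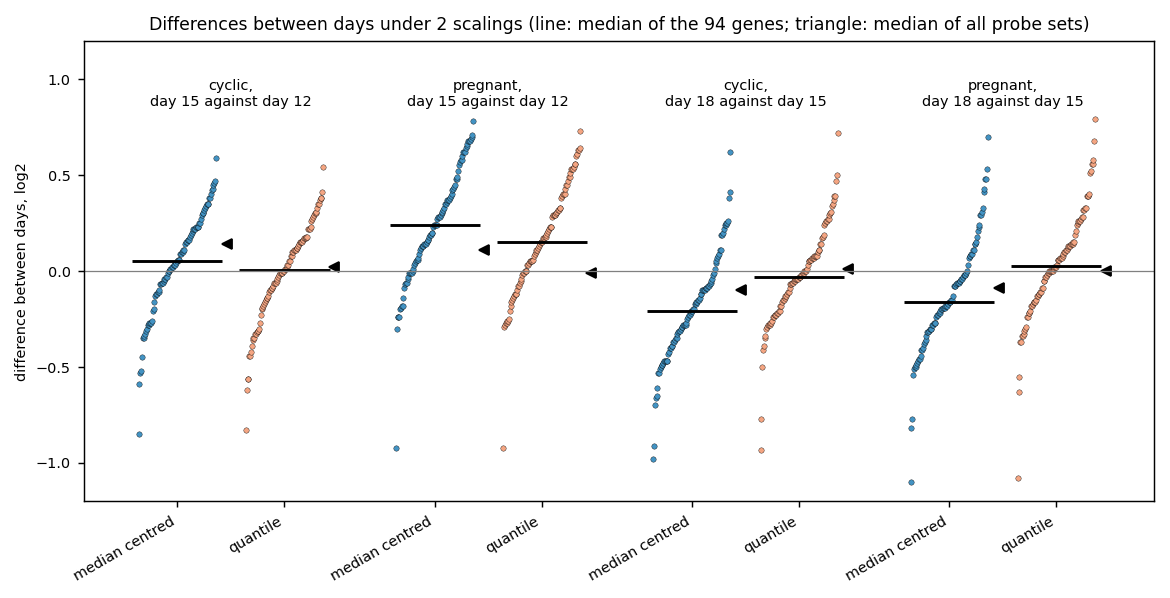
Log2 difference between days (vertical axis) of each of the 94 genes, in ascending order, for 4 comparisons under 2 scalings, with a line at the members' median and a triangle at the median of all probe sets. From day 15 to day 18 the members' median lies at -0.21 and -0.16 on centred arrays and at -0.03 and 0.03 after quantile normalisation.

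Some members differed between days under both scalings. COX7A1 kept 1 level above the array median in cyclic animals, at 1.74 ± 0.07 (SD, n = 5) on day 12, 1.78 ± 0.11 (n = 3) on day 15 and 1.74 ± 0.10 (n = 4) on day 18. In pregnant animals it stood at 1.80 ± 0.10, 2.58 ± 0.27 and 2.57 ± 0.16. The increase from day 12 to day 15 in pregnant animals was 0.78 (adjusted p = 1e-06), and 0.73 after quantile normalisation. SDHAF2, UQCRFS1 and NDUFA9, an accessory subunit of complex I, increased in the same comparison by 0.71, 0.70 and 0.69, and by 0.64, 0.61 and 0.60 after quantile normalisation.

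COX20, an assembly factor of complex IV, fell from day 12 to day 15 in both cyclic and pregnant animals, by 0.85 and 0.92 (by 0.83 and 0.92 after quantile normalisation). NDUFS6, a subunit near the NADH module of complex I, went down and up again: in cyclic animals it read 2.04 ± 0.04, 1.45 ± 0.13 and 2.06 ± 0.08 on days 12, 15 and 18, and in pregnant animals 1.88 ± 0.06, 1.64 ± 0.04 and 2.34 ± 0.16. Both steps passed in both groups under both scalings. NDUFV3 rose by 0.59 from day 12 to day 15 in cyclic animals, UQCRC2 by 0.47, COX6B2 by 0.46 and the assembly factor COX16 by 0.45. NDUFB5 and ATP5F1D fell by 0.53 and 0.52 there. The COX6B2 probe set lay below the array median on both days.

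The smaller falls from day 12 to day 15 in pregnant animals were those of NDUFAF8, NDUFS6 and COX19, at -0.30, -0.24 and -0.24. SDHAF4, a factor that helps assemble complex II, had the largest fall from day 15 to day 18, -0.98 in cyclic and -1.10 in pregnant animals, and it had the widest range of group means of all members, 1.35. NDUFB6 fell by 0.91 and 0.77 and ATP5MC2 by 0.70 and 0.82 over the same days, and NDUFB3 by 0.66 in cyclic and NDUFS5 by 0.54 in pregnant animals. After quantile normalisation ATP5MC2 fell by 0.41 and 0.55, NDUFB3 by 0.50 and NDUFS5 by 0.34. On the deposited values without centring, the differences turned to 0.05 for ATP5MC2 and 0.09 for NDUFB3 in cyclic and to 0.21 for NDUFS5 in pregnant animals. NDUFS8 was higher on day 18 than on day 15 by 0.41 and 0.48, COX10 by 0.25 and 0.53, COX6A2 by 0.38 in cyclic and UQCRB by 0.48 in pregnant animals. The mean of the probe sets of UQCRB differed by 0.02 instead. The rise of COX6A2 did not pass after quantile normalisation (0.27, adjusted p = 0.0534), and its probe set lay below the array median.

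Tissue forms and complex II were also read between days on centred arrays. COX4I1 rose by 0.30 in cyclic and 0.45 in pregnant animals from day 12 to day 15 and fell by 0.49 and 0.50 from day 15 to day 18, though after quantile normalisation these falls were -0.13 (adjusted p = 0.117) and -0.18 (adjusted p = 0.0345). NDUFA4L2, whose probe set lay below the array median in all these groups, rose by 0.38 and 0.68 from day 12 to day 15. SDHA fell by 0.26 from day 12 to day 15 in cyclic animals and differed by -0.01 in pregnant animals. ATP5IF1 rose by 0.55 from day 12 to day 15 in pregnant animals, and by 0.40 after quantile normalisation. Its rise of 0.25 in cyclic animals was 0.17 (adjusted p = 0.0769) after quantile normalisation. From day 15 to day 18 its fall of 0.39 in cyclic animals became -0.07 (adjusted p = 0.521), and its difference of -0.15 in pregnant animals (adjusted p = 0.119) became 0.21 (adjusted p = 0.0407). COX6A1 and COX7A2 also lost their falls of 0.33 and 0.35 in cyclic animals, with 0.00 and -0.11 after quantile normalisation, and in pregnant animals the fall of 0.27 of COX6A1 became 0.07 (adjusted p = 0.550).

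Neighbouring mitochondrial genes were read from lists beside the members, on day 18. In the tricarboxylic acid cycle 5 of 16 genes were higher in pregnant animals and 1 lower, led by DLAT (0.61), a part of pyruvate dehydrogenase, the citrate synthase CS (0.48) and DLD (0.41). Of 10 carriers and porins 2 were higher: SLC25A5, an ADP/ATP translocase, by 1.37 ± 0.160 (adjusted p = 2.31e-06), and the phosphate carrier SLC25A3 by 0.34. SLC25A5 was already higher on day 15, by 1.05 ± 0.185 (adjusted p = 0.00121). Mitochondrial ribosomal proteins had 20 of 67 higher and 2 lower, with MRPL16 at 0.59, MRPL12 at 0.54 and MRPS6 at -0.61. Protein import had 4 of 20 higher and 1 lower, with TIMM23 at 0.59, TIMM44 at 0.41 and TOMM5 at -0.32.

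Assembly factors outside the name rule had 5 of 15 higher, with SCO1, a copper chaperone of complex IV, at 0.45, ECSIT at 0.41 and ATPAF2 at 0.34. Of 12 regulators of mitochondrial biogenesis 1 was higher, the transcription elongation factor TEFM (0.31). Antioxidant enzymes had 3 of 10 higher and 2 lower, with SOD2 at 0.50, TXN2 at 0.47 and PRDX5 at -0.48. Glycolysis had 3 of 16 higher: PFKP, a phosphofructokinase, by 0.99, PGK1 by 0.64 and PGAM1 by 0.34. These counts stand beside the 8.84% of all probe sets that were higher and the 10.2% that were lower, and the list medians ran from 0.00 for the biogenesis regulators to 0.17 for the tricarboxylic acid cycle. Pregnant animal 2 had the highest mean of the pregnant animals of day 18 in each of these lists except the biogenesis regulators, such as 2.91 against 2.60 to 2.77 in glycolysis. Without it, 4 genes of the tricarboxylic acid cycle were higher and none lower, with a median of 0.12. Mitochondrial ribosomal proteins then had 16 higher and 2 lower, import 3 and 1, outside assembly factors 4 and 0, and antioxidant enzymes 2 and 2, while carriers, biogenesis and glycolysis kept their counts.

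Some markers of cell types also differed on day 18, where 8.84% of all probe sets were higher and 10.2% lower in pregnant animals. Of 11 macrophage and dendritic cell markers 8 were higher in pregnant animals, with a median difference of 1.08; their mean level ran from 0.19 to 0.36 in cyclic and from 1.10 to 1.44 in pregnant animals. Of 13 endothelium markers 6 were lower, with mean levels of 0.84 to 1.44 in cyclic and 0.60 to 0.85 in pregnant animals. Epithelium markers had 3 of 13 higher and 1 lower, at mean levels of 2.13 to 2.41 and 2.13 to 2.44, and stroma markers 1 of 12 higher and 2 lower, at 3.61 to 3.76 and 3.54 to 3.65. Smooth muscle markers had none of 8 past the threshold, at 1.5 to 2.36 and 1.70 to 1.79, beside the muscle form COX7A1. T and NK cell markers had 1 of 17 lower, erythrocyte and platelet markers none of 6, and trophoblast markers none of 8. The trophoblast markers lay 2.41 to 2.70 below the array median in cyclic and 2.43 to 2.56 below it in pregnant animals, with the PAG2 probe set between the 1.77th and 5.76th percentile of its arrays. On day 15, where 1 of the 11 macrophage markers and 3 of the 13 epithelium markers were higher, their mean levels were 0.29 to 0.74 in cyclic and 0.74 to 0.84 in pregnant animals for macrophages, and 2.15 to 2.31 and 2.34 to 2.36 for epithelium. Endothelium markers, of which 2 of 13 were lower on day 15, had mean levels of 1.03 to 1.31 in cyclic and 0.76 to 1.05 in pregnant animals. Over all probe sets 2.75% were higher and 2.32% lower on day 15. Without pregnant animal 2, 7 macrophage markers were higher and 5 endothelium markers lower on day 18. With IFNA against placebo 3 of the 11 macrophage markers were higher, where 0.837% of all probe sets were, at mean levels of 1.21 to 1.62 with IFNA, 0.13 to 0.81 with placebo and 0.59 to 0.74 with PBS. The part of these markers in the members' differences was not tested.

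For 26 of the 94 genes the array holds further probe sets, 30 in all, which were tested too. On day 18, 4 of the 30 were higher and 1 lower, where 8.84% of all probe sets were higher and 10.2% lower. Of the 12 genes whose brightest probe set had passed, 2 had another that passed the same way, ATP5F1B (0.33) and NDUFAF5 (0.64), and 5 other probe sets of these genes had the opposite sign without passing or a difference of 0, among them UQCRB (-0.08) and UQCRC2 (-0.14). By the rule, each of these is dimmer than the one that stands for its gene. NDUFA5 and NDUFB2 were read differently by their probe sets: the brightest of NDUFA5 differed by 0.09 and another by 0.76 (adjusted p = 5.39e-05), and the brightest of NDUFB2 by -0.14 and another by 0.43 (adjusted p = 0.00175). The second probe set of NDUFA4L2 was lower by 0.34 (adjusted p = 0.00690). COX7A1, COX5A, UQCRFS1, NDUFS4 and ATP5IF1 each have 1 probe set, so no second reading stands behind them.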

How the data were processed

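The deposited table holds log2 values per probe set for 33 arrays; per the submitters' processing notes RMA and affy were used, with versions not given in the sources used here. RMA corrects background, normalises quantiles and summarises probes, and by the values it was run separately on 4 sets of arrays, so levels are not comparable between sets without centring. Arrays have no read depth, and the number of animals limits the precision.

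Of 24128 probe sets 112 controls were left out and 24016 tested; 13292 had 1 gene symbol, 86 several and 10638 none, and the latter 2 kinds were not named. Symbols were updated through gene identifiers in RefSeq, which held 13263 of them. limma 3.58.1 in R 4.3.3 (lmFit, eBayes, two-sided) was fitted with 1 mean per group, over the 9 biopsy arrays, the 24 slaughter arrays or all 33, giving 14 comparisons with Benjamini-Hochberg adjustment over all probe sets and a threshold of 0.05. Errors are SE from the fit, or SD over animals. p-values set group differences against the spread between animals, which was estimated over all groups of a fit and moderated across probe sets. The script was tested on simulated data.

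Genes were named by rule: up to 10 per direction with the largest differences past the threshold, or the 2 largest differences where fewer than 2 passed, together with tissue forms, SDHA to SDHD and ATP5IF1. Between days 4 per direction are printed. NDUFV1, COX10, NDUFAF5, UQCRQ, UQCR10, UQCRC2, UQCRH, NDUFA5 and NDUFB2, and genes listed for passing every alternative, were chosen after their values were seen. The members and the lists of other genes and cell markers were chosen with earlier results of these data known.

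Alternatives were quantile normalisation across arrays, the other centring (deposited values between days, median-centred arrays elsewhere), the compared groups alone, the replicate number as a block, probe sets with a mean below 6.81 left out, the mean over probe sets, array weights, the GAPDH difference as covariate in biopsies, and each animal left out. Leaving pregnant animal 2 of day 18 out of the counts of the other lists was an alternative chosen after seeing the data.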

Additional observations from a re-analysis of the deposited data

Results flagged for a closer look

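Readings of 35 members and sets were examined in the groups of 4 or 5 animals, 140 in all. They come from the same arrays and are not independent. In 7 of them 1 array lay far from the others, where chance gives about 1 in 20. The number of flags is thus about what that rate gives. In pregnant animals of day 18, animal 2 read 11.48 for UQCRFS1, the Rieske protein of complex III, against 11.03 to 11.09 in the others, and 10.74 for NDUFA6 of complex I against 10.44 to 10.49. In cyclic animals of day 18, animal 1 had a mean over the assembly factors of 0.90 above the array median against 0.81 to 0.82, and read 10.98 for SDHB against 10.83 to 10.85. On day 12, cyclic animal 5 read 10.65 for COX5A against 10.40 to 10.46, pregnant animal 2 read 5.30 for NDUFA4L2 against 5.51 to 5.57, and pregnant animal 1 read 9.94 for NDUFA6 against 9.77 to 9.81.

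The pregnancy difference of COX7A1 was larger on day 15 than on day 12 by 0.74 (limma interaction, adjusted p = 0.00336). The IFNA difference over placebo was smaller than the day 18 pregnancy difference for UQCRFS1 (-0.72), ATP5MC3 (-0.69), NDUFS4 (-0.69), NDUFB6 (-0.66), COX7A2 (-0.63), NDUFB5 (-0.62) and UQCRB (-0.58), by limma's test of the difference.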

How the results depend on the processing

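Counts are of members past the threshold; the annotation's own symbols gave the same 94 members, with 0 genes matched by only 1 kind of symbol. With array weights, 1 passed for IFNA against placebo, 1 against PBS, 13 for pregnant against cyclic on day 15, 4 for the change from day 12 to 15, 7 for the IFNA effect against that of day 15 and 23 against day 18. The GAPDH covariate gave 1 for IFNA against placebo and 1 against PBS. With the compared groups only, there were 4 on day 15, 21 on day 18, 9 for the change from day 12 to 15, 32 for pregnant day 18 against day 15 and 0 for the IFNA effect against day 18. Without low probe sets there were 15 on day 15 and 6 for the change from day 12 to 15. Quantile normalisation gave 32 for cyclic day 18 against day 15 and 11 for the IFNA effect against day 18. Deposited values without centring gave 86 and 92 for day 18 against day 15 in cyclic and pregnant animals. These counts do not separate rises from falls, and only 7 of the 56 cyclic calls were kept there. Over the alternatives the members' median ran from -0.25 to 0.54 in cyclic and from -0.2 to 0.59 in pregnant animals. Among the genes named, ATP5MC2 (0.05) and NDUFB3 (0.09) in cyclic and NDUFS5 (0.21) in pregnant animals were reversed without centring. Median-centred arrays gave 3 for the change from day 12 to 15, and 1 and 12 for the IFNA effect against days 15 and 18. The cause was not tested, except that compared groups only estimates the spread from fewer animals. Shares of all probe sets are not given beside the counts of this section, so whether the members alone moved cannot be read from them.

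Leaving out 1 animal gave 0 to 1 for IFNA against placebo, 0 to 0 against PBS and for placebo against PBS, 0 to 0 on day 12, 2 to 5 on day 15, 29 to 51 on day 18, 1 to 2 and 0 to 0 for the changes from day 12 to 15 and from 15 to 18, 37 to 48 and 48 to 55 between days in cyclic animals, 48 to 56 and 40 to 51 in pregnant animals, and 0 to 2 and 1 to 15 for the IFNA effect against days 15 and 18. The replicate number as a block gave 6 on day 15, 45 on day 18, 1 for the change from day 12 to 15, 44 and 56 between days in cyclic and 55 and 48 in pregnant animals, and 6 for the IFNA effect against day 18. Deviations of same-numbered animals correlated at -0.34 to 0.37. With 3 to 5 animals a group, this cannot settle whether the numbers pair animals. Signal over background limits the dimmer members, and 3 to 5 animals a group limit all of them.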
